A study of Saccharomyces cerevisiae with 177 samples.

Results

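The data describe newly made RNA in a Saccharomyces cerevisiae strain, labelled Med7C, in which the Mediator subunit Med7 was supplied as separate N-terminal and C-terminal parts and the C-terminal part could be destroyed. The comparison rests on 6 of the 177 libraries of the series, labelled Med7C_3IAA (A, B and C) and Med7C_DMSO (A, B and C). Each gave a deposited signal value for 5794 genes, and 4526 genes were tested, those whose signal averaged 10 or more across the 6 libraries, while 1268 fell short of that. The series made the same comparison in 22 degron strains. Mid-log cells in synthetic complete medium, kept at 30 °C, received 4-thioU for 5 min, a uracil analogue built into new transcripts.

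Mediator is a large complex that passes signals from gene-specific activators to RNA polymerase II and the general factors at promoters. It has head, middle and tail modules joined by the scaffold Med14, and a kinase module that can come off. Med7 is a subunit of the middle module. Its N-terminal part binds Med31, and its C-terminal part pairs with Med21. In yeast the tail is best known for serving inducible genes, among them stress and nutrient genes.

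Both groups were the same strain, SHY1428. Its chromosomal MED7 was removed (med7D::KanMX), and separate centromere plasmids carried the parts: pSH1989, marked LEU2, held med7DC (the N-terminal part), and pSH1990, marked TRP1, held med7DN (the C-terminal part) with a mini degron. All 6 libraries came from a MATalpha background with ade2::hisG, his3D200, leu2D0, lys2D0, met15D0, trp1D63, ura3D0 and pGPD1-OSTIR::HIS3, the last of which supplies a plant auxin receptor. The groups differed in treatment with 3IAA, an auxin that sends degron-tagged proteins to the proteasome, or with DMSO. The labels gave neither the length of treatment nor a statement that replicates were separate cultures. The p-values therefore reflect sample-to-sample spread that may be technical.

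Marker genes were set against the labels. MF(ALPHA)1, the alpha pheromone gene, had a signal of 472.6 to 1414 in the 6 libraries, whereas the a-cell genes MFA1, MFA2, STE2 and BAR1 lay between 0.24 and 2.82. LYS2, MET17 and HIS3 were listed at 0 in all 6, although the labels name a HIS3 marker. URA3 and ADE2 reached at most 0.08. MED7 itself (YOL135C) had 123.5, 108 and 101 in 3IAA and 114, 97.5 and 101 in DMSO, and the groups overlapped. Its RNA can come from both plasmids and does not measure the protein, so these files give no check of the depletion.

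Signal fell across the genome. Summed signal was 207756 to 239651 in the 3IAA libraries and 326246 to 353548 in the DMSO libraries, which did not overlap. The median gene had a log2 change of −0.50, which left 70.5% of its DMSO level, and the median change was −0.46, −0.60 and −0.47 for the pairs A, B and C. By limma with Benjamini-Hochberg adjustment, 4311 genes were lower (95.2% of those tested) and 8 were higher (0.177%) at an adjusted p under 0.05. Of the 207 genes not called, 186 also had a negative change. A separation of the groups in deposited signal, given below for genes that fell, includes this shared fall. The share of all genes so separated was not counted. In bulk libraries, fewer cells and less RNA per cell cannot be told apart, and the basis of the deposited scaling is not given in the sources used here.

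To set each gene against the typical one, every library was also centred on its median gene. On that relative scale 408 genes were higher (9.01%) and 681 were lower (15%). The letters A, B and C paired the libraries, and with the letter as a block 867 were higher (19.2%) and 998 lower (22.1%), which included all 408 and all 681. The number higher was 186 on leaving out 3IAA A, 222 for 3IAA C, 133 for DMSO A and 256 for DMSO B. Of the 408 genes, 239 were lower on the deposited scale, 161 were not called there and 8 were higher, so a relative rise was mostly a smaller fall. Changes of more than 2-fold on the relative scale were downward in 48 genes and upward in 5. Counts for gene lists below are to be read against the shares over all genes tested, 9.01% higher and 15% lower.

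**Figure D1:**
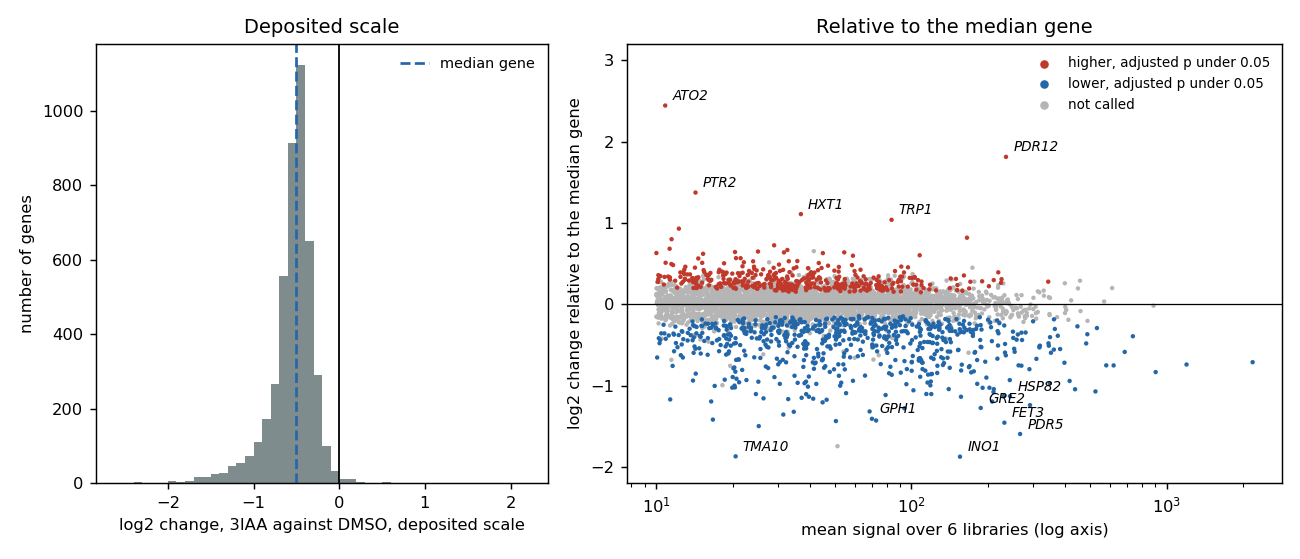
The left panel counts the 4526 tested genes by log2 change on the deposited scale, where the median gene lies at −0.50. The right panel plots log2 change relative to the median gene against mean signal on a log axis, with the 408 genes called higher and the 681 called lower coloured. ATO2 is the highest point at 2.44, and INO1 and TMA10 lie lowest at −1.88 and −1.87.

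Falls were commoner among genes of high signal. Tested genes were split by mean signal into 10 bins of 452 or 453. In the bin of highest signal, from 127 upward, 31.3% were lower and 3.97% higher relative to the median gene. In the bin of lowest signal, from 10 to 14.7, 8.83% were lower and 10.8% higher. Signal is not per gene length, so it ranks genes only roughly, and levels are compared below only within a gene.

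Upstream sequence is shown for 6 genes that the results turn on, each with a match to the known site of its regulator, chosen after the values were seen. Each window holds bases 400 to 101 before the start codon, 5′ to 3′ on the gene's strand, from the RefSeq genome R64 (sacCer3). Capitals mark a match on either strand to CATGTG (the Ino2 and Ino4 site) in INO1, GCACCC (the core of the Aft1 site) in FET3, AGGGG (the stress response element of Msn2 and Msn4) in GPH1, TCCGCGGA (the site of Pdr1 and Pdr3) in PDR5, TTCNNGAA (the heat shock element) in HSP82 and GATGAG (the core of the PAC element) in RRN3.
INO1 (chrX:136034-136333, minus strand): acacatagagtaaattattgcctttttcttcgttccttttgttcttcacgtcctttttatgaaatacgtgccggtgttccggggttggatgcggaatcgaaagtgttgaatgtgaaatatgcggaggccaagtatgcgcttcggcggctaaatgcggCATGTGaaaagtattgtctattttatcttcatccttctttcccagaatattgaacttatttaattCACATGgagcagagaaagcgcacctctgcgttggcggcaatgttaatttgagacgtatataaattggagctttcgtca
FET3 (chrXIII:388422-388721, plus strand): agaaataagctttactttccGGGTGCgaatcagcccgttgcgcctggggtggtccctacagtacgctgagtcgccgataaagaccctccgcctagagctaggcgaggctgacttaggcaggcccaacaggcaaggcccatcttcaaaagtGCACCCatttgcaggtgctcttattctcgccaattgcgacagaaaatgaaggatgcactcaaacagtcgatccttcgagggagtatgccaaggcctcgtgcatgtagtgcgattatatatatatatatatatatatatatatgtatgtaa
GPH1 (chrXVI:860906-861205, plus strand): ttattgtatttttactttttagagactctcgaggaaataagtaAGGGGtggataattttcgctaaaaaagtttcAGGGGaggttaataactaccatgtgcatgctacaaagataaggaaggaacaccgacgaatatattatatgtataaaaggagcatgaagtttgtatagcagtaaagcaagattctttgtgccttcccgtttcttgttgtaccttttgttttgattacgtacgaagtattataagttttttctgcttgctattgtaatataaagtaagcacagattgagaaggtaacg
PDR5 (chrXV:619440-619739, plus strand): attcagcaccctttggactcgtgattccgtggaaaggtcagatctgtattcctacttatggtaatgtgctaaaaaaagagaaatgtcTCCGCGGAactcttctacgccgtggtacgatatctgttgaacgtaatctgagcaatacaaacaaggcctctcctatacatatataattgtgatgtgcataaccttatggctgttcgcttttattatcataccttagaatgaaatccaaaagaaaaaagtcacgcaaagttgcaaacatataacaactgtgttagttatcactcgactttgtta
HSP82 (chrXVI:98726-99025, minus strand): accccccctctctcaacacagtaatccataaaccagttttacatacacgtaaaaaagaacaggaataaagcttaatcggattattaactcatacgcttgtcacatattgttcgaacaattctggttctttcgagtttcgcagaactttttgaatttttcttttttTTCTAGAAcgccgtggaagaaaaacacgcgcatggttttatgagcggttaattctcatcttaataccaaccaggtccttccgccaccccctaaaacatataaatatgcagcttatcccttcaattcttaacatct
RRN3 (chrXI:207847-208146, plus strand): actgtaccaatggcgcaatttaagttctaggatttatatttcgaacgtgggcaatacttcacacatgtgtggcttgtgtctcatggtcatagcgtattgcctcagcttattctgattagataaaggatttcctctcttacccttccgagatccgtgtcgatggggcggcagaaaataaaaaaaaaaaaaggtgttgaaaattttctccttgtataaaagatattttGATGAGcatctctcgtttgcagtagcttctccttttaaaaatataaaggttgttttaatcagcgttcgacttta

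INO1, which codes for the enzyme that makes inositol phosphate and is switched on by Ino2 and Ino4, had the largest fall relative to the median gene among genes named by rule. Its signal was 63.9, 76.1 and 19.6 in 3IAA and 297, 320.5 and 154 in DMSO. Every 3IAA library lay under every DMSO library, and both C libraries were the lowest of their group. INO1 was among the largest falls, which were named only if the groups did not overlap on the relative scale. The median gene was lower in every 3IAA library than in every DMSO library, so that choice also forces separation in deposited signal. The same holds in Med7C for FET3, GPH1, PDR5 and GRE2, and the separation of these genes is no added support. The means were 53.2 ± 29.7 and 257 ± 90.2 (SD, n = 3), a 4.83-fold fall. The relative log2 change was −1.88 ± 0.47 (SE; limma, adjusted p = 0.0227). The call was lost without 3IAA A, DMSO A or DMSO B (adjusted p up to 0.0838).

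Phospholipid genes fell with it. All 18 listed genes of inositol and phospholipid synthesis were tested, 13 were lower and 0 higher relative to the median gene, and the list median was −0.39, against 0.01 for all genes tested. ITR1, an inositol transporter, had 249, 214 and 202 in 3IAA and 672, 687 and 604 in DMSO, with no overlap. Its relative log2 change was −1.05 ± 0.06. CHO2 and CHO1, of phosphatidylcholine and phosphatidylserine synthesis, changed by −0.74 and −0.69 on that scale. The letters CATGTG stood in 9.28% of all windows, 12.3% of those before lower genes and 7.84% before higher genes.

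The iron regulon, switched on by Aft1 and Aft2 when iron is short, held several of the deepest falls. FET3, the oxidase of high-affinity iron uptake, had 103, 118 and 65.2 in 3IAA and 372, 404 and 327 in DMSO. The groups lay far apart, with a 3.85-fold fall and a relative log2 change of −1.46 ± 0.20 (adjusted p = 0.00149). Its partner permease FTR1 had 33.7, 36.9 and 19.5 in 3IAA and 114, 134.5 and 98 in DMSO and changed by −1.43 ± 0.22. The siderophore transporters ARN2 and SIT1 changed by −1.50 ± 0.37 and −1.44 ± 0.38. The call of ARN2 was lost without 3IAA A, 3IAA C or DMSO A, and that of SIT1 without 3IAA A, 3IAA C, DMSO A or DMSO B.

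TIS11, an RNA-binding protein of the iron response named after its values were seen, varied with the letter. It had 12.7, 40.2 and 4.87 in 3IAA and 54.2, 155 and 41.5 in DMSO. In each letter the 3IAA library was the lower one. The relative log2 change of −1.75 ± 0.71 was not called (adjusted p = 0.105) but was called without 3IAA B and with the letters as a block (adjusted p = 5.19e-05). Of 29 listed iron genes 24 were tested, 11 were lower, 0 higher, and all 24 had relative changes below 0 (median −0.58). The number lower was 22 with the block, 6 on leaving out 3IAA A, 17 for 3IAA B and 6 for 3IAA C. GCACCC stood in 4.37% of all windows, 7.78% of those before lower genes and 3.43% before higher genes.

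General stress genes fell almost throughout. Msn2 and Msn4 raise them in many stresses and in slow growth. Of 38 listed 31 were tested, 30 were lower and 0 higher relative to the median gene, and the list median was −0.90. The tested member not called was CTT1, a catalase. GPH1, which releases glucose from glycogen, had 33.1, 29.9 and 22.6 in 3IAA and 106, 139 and 89.8 in DMSO. That was a 3.91-fold fall without overlap, with a relative log2 change of −1.41 ± 0.16 (adjusted p = 0.000653). TSL1, of the trehalose synthase complex, had 144, 139 and 113 in 3IAA and 437, 553 and 364 in DMSO and changed by −1.24 ± 0.14. PGM2, a phosphoglucomutase, changed by −1.32.

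TMA10, a ribosome-associated protein outside the list, had 6.46, 5.51 and 5.72 in 3IAA and 37.7, 35.8 and 31.7 in DMSO. The libraries of each group were close together, and the 5.95-fold fall gave a relative log2 change of −1.87 ± 0.06 (adjusted p = 3.12e-06). All 3 3IAA libraries were under the signal minimum of 10, so TMA10 was tested only through its DMSO level, a choice that favours a difference. Trehalose and glycogen genes, many of them also in the stress list, were lower in 16 of 20 with 0 higher (median −0.71). Glycolysis genes were lower in 17 of 19 tested with 0 higher (median −0.41), led by the glucose kinases HXK1 (−1.13) and GLK1 (−0.98). Several glycolysis genes are near-identical pairs whose reads may be shared.

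The stress response element was commoner before genes that fell. Of the 4526 windows, 24% held AGGGG on either strand, against 40.5% before the 681 lower genes, 15% before the 408 higher genes and 21.9% before the rest. Among the 3438 genes with 0 matches 11.8% were lower, among 909 with 1 match 21%, among 141 with 2 matches 46.8% and among 38 with 3 or more 50%. The median relative change was 0.03 with 0 matches and −0.44 with 3 or more. A match describes the sequence and is not a bound site, and the genes were not matched for signal. TATAAA, the TATA box, was spread more evenly, in 43.6% of all windows, 48.9% before lower genes and 41.9% before higher genes.

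**Figure D2:**
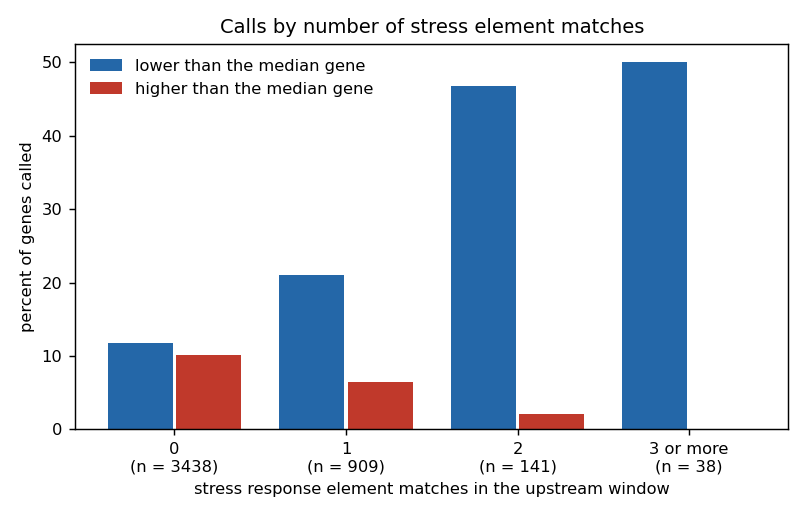
Bars group the tested genes by the number of stress response element matches in the 300-base upstream window and give, for each number, the percent called lower (blue) and higher (red) than the median gene. The lower share is 11.8% with 0 matches and 50% with 3 or more, and the higher share is 10.1% and 0%.

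Chaperone genes under Hsf1 moved the same way. Of 26 listed 25 were tested, 18 were lower and 0 higher (median −0.59). The number lower was 12 to 20 when a library was left out, lowest for DMSO A. HSP82, an Hsp90 chaperone, had 135, 81.3 and 143 in 3IAA and 424, 325 and 353 in DMSO. Its groups did not overlap, and the relative log2 change was −1.13 ± 0.17 (adjusted p = 0.00246). HSP104, which takes protein aggregates apart, changed by −1.20, and SSA1, an Hsp70 chaperone with close copies, by −1.14. TTCNNGAA stood in 13.9% of all windows, 14.4% before lower genes and 16.4% before higher genes.

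Drug efflux genes split. PDR5, the main multidrug exporter, had 113, 80.1 and 107 in 3IAA and 442, 387 and 471.5 in DMSO. No libraries overlapped, and the 4.32-fold fall gave a relative log2 change of −1.60 ± 0.11 (adjusted p = 7.28e-05). The exporters TPO4 and SNQ2 changed by −0.98 and −0.94. Of 22 listed genes of drug efflux and weak acid response 18 were tested, 10 were lower and 1, PDR12, was higher (2 higher with the block). TCCGCGGA stood in 20 windows in all.

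PDR12, the exporter of weak organic acids, was one of the 8 genes that rose on the deposited scale. It had 355, 366 and 267 in 3IAA and 159.5, 183 and 79 in DMSO, and every 3IAA library lay above every DMSO library. The 2.35-fold rise gave a log2 change of 1.30 ± 0.17 on the deposited scale (adjusted p = 6.15e-08) and 1.81 ± 0.26 on the relative scale. ATO2, a transporter linked to ammonia export, had 19.5, 23.4 and 10.8 in 3IAA and 3.65, 4.83 and 2.94 in DMSO. Its level was 4.7-fold higher in 3IAA, with a deposited log2 change of 1.93 ± 0.17 and a relative one of 2.44 ± 0.26. All 3 DMSO libraries were under the signal minimum of 10, so ATO2 was tested only because its 3IAA level was high, a choice that favours a difference, and it dropped out of the test on leaving out 3IAA A or 3IAA B.

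Other transporters were among the genes that rose. PTR2, a peptide transporter, had 21, 17.5 and 17.4 in 3IAA and 10.4, 11.4 and 7.87 in DMSO (deposited log2 0.86 ± 0.12), and its DMSO mean too was under the minimum. HXT1, the low-affinity glucose transporter, had 41.8, 44.2 and 47.7 in 3IAA and 27.3, 28.4 and 32.1 in DMSO (deposited log2 0.59 ± 0.10). NRD1, a protein that ends short transcripts early, had 186, 183 and 179 in 3IAA and 152, 158 and 135 in DMSO (deposited log2 0.30 ± 0.10, adjusted p = 0.00399). In PTR2, HXT1 and NRD1 all 3IAA libraries lay above all DMSO libraries. Of 12 tested genes of hexose transport 3 were higher and 2 lower relative to the median gene. The lower ones were HXT4 (−0.64) and HXT7 (−0.375), and the HXT7 call was lost without 3IAA A. ICS2, of unclear role, and LCL1, named for long life span, rose by 0.41 and 0.28 on the deposited scale, and the LCL1 call was lost without 3IAA C or DMSO A (adjusted p up to 0.0886).

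TRP1, a tryptophan synthesis gene carried here on the plasmid with the degron-tagged part, was the last of the 8. It had 111, 97 and 88.5 in 3IAA and 74.5, 73.9 and 57.3 in DMSO, without overlap, and its log2 change was 0.52 ± 0.11 on the deposited and 1.04 ± 0.09 on the relative scale. LEU2, on the other plasmid, had 812.5, 659 and 699 in 3IAA and 1262, 1021 and 883 in DMSO, and its relative change of −0.02 ± 0.10 was not called (adjusted p = 0.898). MED7 changed by 0.60 ± 0.07 relative to the median gene (adjusted p = 0.000587) and its deposited value of 0.09 ± 0.10 was not called. A change in plasmid number was not tested.

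**Figure D3:**
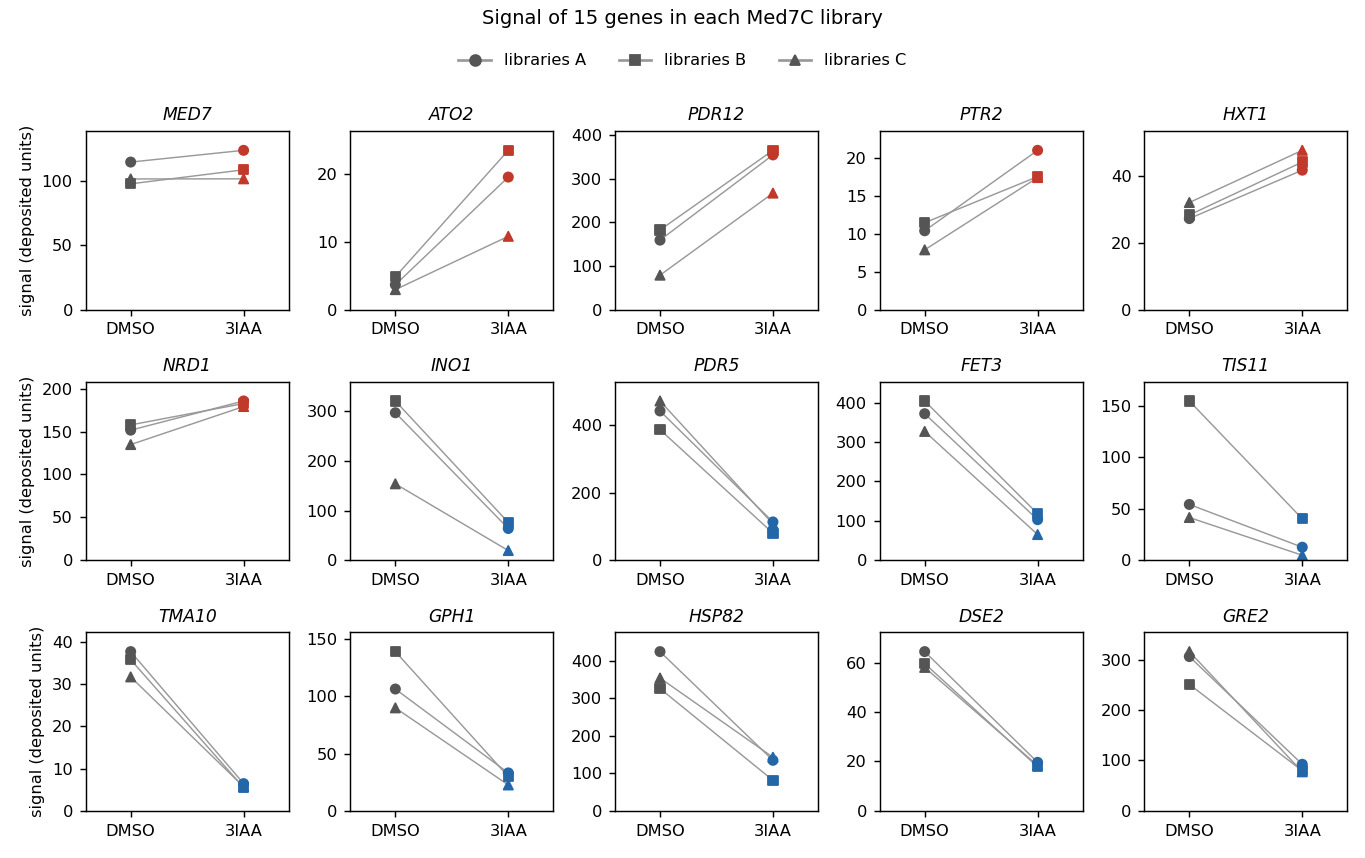
Each panel plots the deposited signal of 1 gene in the 3 DMSO and the 3 3IAA libraries on an axis that starts at 0, with lines joining libraries of the same letter. ATO2, PDR12, PTR2, HXT1 and NRD1 are higher in 3IAA, MED7 overlaps, the other 9 genes are lower, and the C libraries are low for INO1 and PDR12 in both groups.

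Other relative rises were close to no change on the deposited scale. HMS1 and TOD6, transcription factors, changed by 0.72 and 0.67 on the relative scale. Their deposited values of 0.21 and 0.15 were not called. HRP1, a 3′ end processing factor, had 25.3, 26.1 and 27.4 in 3IAA and 24.8, 24.3 and 22.5 in DMSO (relative log2 0.65 ± 0.07). Of 13 listed genes of early termination 12 were tested, 8 were higher and 0 lower relative to the median gene (median 0.28). That number was 5 on leaving out 3IAA C or DMSO A. Over all genes tested 9.01% were higher. The 8 included URA8 (0.42), which is not a termination factor. The flocculin genes FLO1 and FLO5 changed by 0.68 and 0.64, but they are near copies of each other and may share reads.

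Ribosome assembly genes fell less than the median gene. Of 104 listed 103 were tested, and 101 of these had relative changes above 0, with a median of 0.28 on the relative and −0.24 on the deposited scale. Relative to the median gene 32 were higher and 1 lower. With the block 93 were higher, and the number was 4 on leaving out 3IAA A, 72 for 3IAA B, 6 for 3IAA C or DMSO A, 10 for DMSO B and 41 for DMSO C. RCL1, of small subunit assembly, had 37.9, 30.1 and 36.2 in 3IAA and 38, 32.4 and 38.1 in DMSO, which overlap on the deposited scale, and its relative log2 change was 0.45 ± 0.08 (adjusted p = 0.00668). RRN3, the initiation factor of RNA polymerase I, is outside this list. It had 56.2, 54 and 60.6 in 3IAA and 51.5, 55.7 and 49.4 in DMSO and changed by 0.64 ± 0.07.

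Subunits of RNA polymerases I and III were higher in 4 of 17 tested, against 9.01% over all genes, with 0 lower (median 0.22). The number higher was 13 with the block, 1 on leaving out 3IAA A, 8 for 3IAA B, and 0 for 3IAA C, DMSO A or DMSO B. With the block 19.2% of all genes tested were higher. GATGAG stood in 18.2% of all windows, 29.7% before higher genes and 14.1% before lower genes. Genes with it had a median relative change of 0.06.

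Ribosomal protein genes lay close to the median gene. Of 138 genes listed as cytoplasmic ones 128 were tested. Of these 1 was higher and 2 lower on the relative scale (median 0.06), with 11 higher and 5 lower under the block. On leaving out a library, 0 to 3 were higher (0 without 3IAA C, 3 without DMSO C) and 1 to 6 lower (6 without DMSO B, 1 for each of the others). All 128 were lower on the deposited scale, with a median of −0.46. Many are paralog pairs that may share reads. The list also held RPP1, a subunit of RNase P and not a ribosomal protein, which was not called on the relative scale (0.19). Proteasome genes had 1 of 34 higher, their activator RPN4 (0.30 ± 0.07), a call lost without DMSO A or DMSO B. With the block 3 were higher.

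Among genes for Mediator itself few were called. Relative to the median gene, 1 of 6 tested head genes, 1 of 6 middle genes, 1 of 5 tail genes and 0 of 4 kinase genes were higher, and 0 were lower. Over all genes tested 9.01% were higher and 15% lower. With the block the numbers higher were 2, 1, 2 and 1, and 1 kinase gene was lower. The middle gene was MED7. SRB5, of the head, changed by 0.28 ± 0.06 (adjusted p = 0.0109). PGD1, of the tail, changed by 0.17 ± 0.05, and its call was lost whichever of the 6 libraries was left out. MED11, SRB2, CSE2 and NUT2 were not tested because of low signal. Of 33 tested genes for RNA polymerase II and its general factors 4 were higher and 3 lower, and 27 had values above 0 (median 0.09). The number higher was 10 with the block and 1 on leaving out DMSO A. The lower ones were NCB2, BUR6 and MOT1. NCB2 and BUR6, the subunits of the NC2 repressor, changed by −0.60 ± 0.06 and −0.52 ± 0.08, and MOT1, which removes TBP from DNA, by −0.50 ± 0.05.

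Cell cycle and cell surface genes were mostly lower. DSE2, which helps daughter cells separate, had 19.7, 17.8 and 18.4 in 3IAA and 64.5, 59.6 and 58.1 in DMSO, without overlap, and changed by −1.14 ± 0.05 on the relative scale. Of 15 genes of daughter cells and cytokinesis 13 were lower and 0 higher (median −0.50). Of 29 tested cell wall genes 19 were lower and 1 higher, with SPI1 at −1.17 and GAS1, a glucan enzyme, at −0.77. Of 10 tested histone genes 8 were lower, among them the linker histone HHO1 (−0.74). Of 22 tested genes for G1 and S cyclins and regulators 12 were lower and 0 higher (median −0.29). Over all genes tested 15% were lower and 9.01% higher. FLO1 and FLO5, also genes of the cell surface, were higher, as given above. MF(ALPHA)1 and STE3, the a-factor receptor of alpha cells, changed by −0.83 and −0.72.

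**Figure D4:**
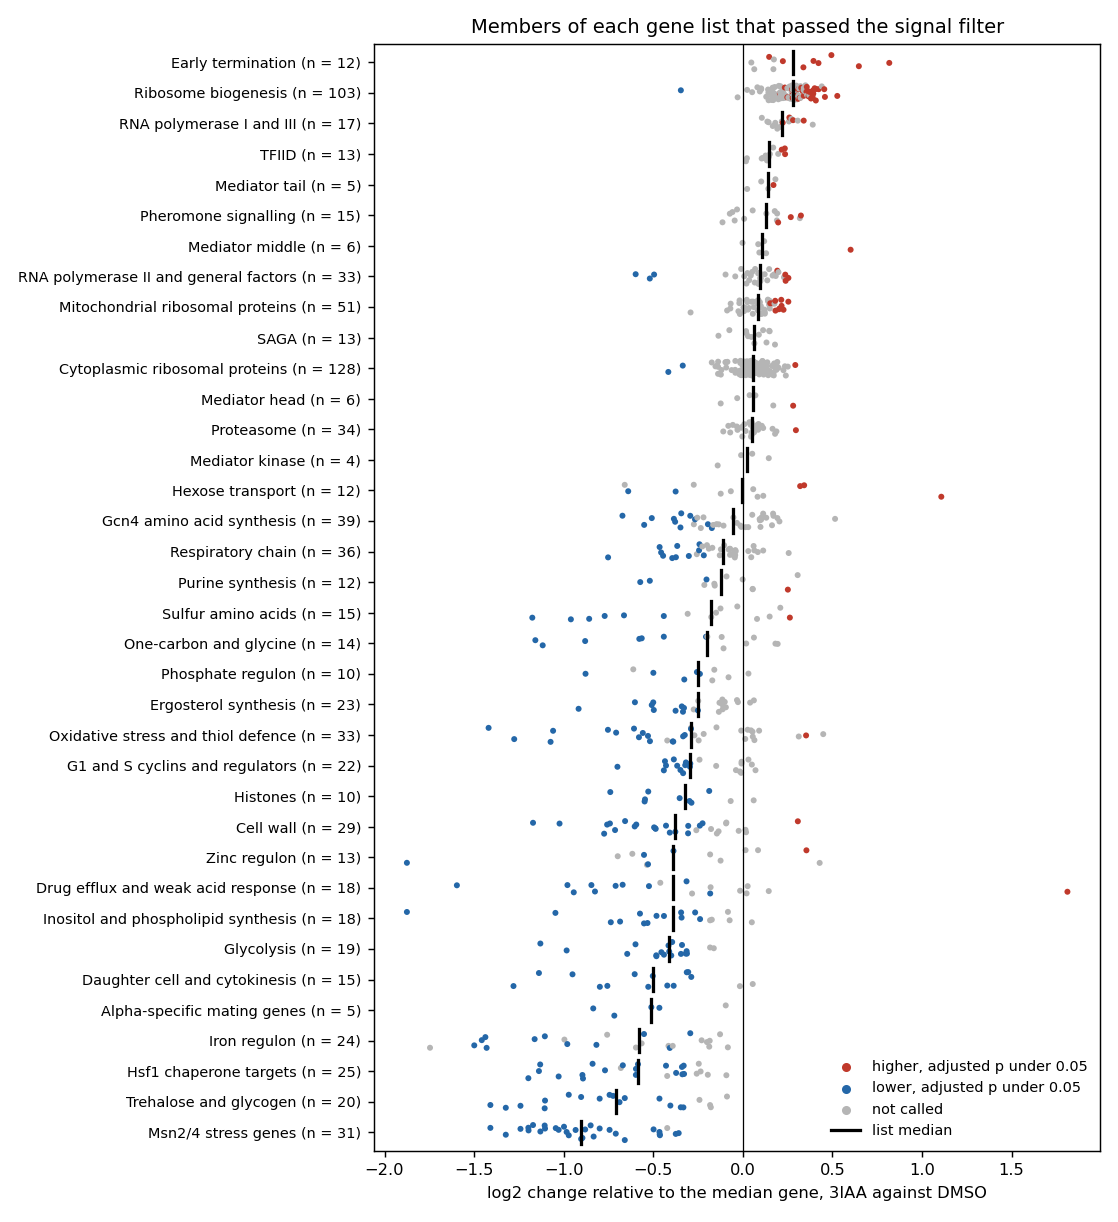
Each row is 1 gene list, its points are the tested members' log2 changes relative to the median gene (red higher, blue lower, grey not called), and the bar is the list median. The Msn2 and Msn4 list lies below 0 throughout (median −0.90), the ribosome biogenesis list mostly above it (median 0.28).

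Among biosynthesis lists more genes were lower than higher, as over all genes tested (15% lower and 9.01% higher). Relative to the median gene, 6 were lower and 1 higher of 15 tested genes of sulfur amino acids, 7 were lower and 0 higher of 14 tested genes of one-carbon and glycine metabolism, 10 were lower and 0 higher of 23 tested genes of ergosterol synthesis, and 3 and 1 of 12 of purine synthesis. With the block the purine genes were 4 and 2 and the one-carbon genes 7 and 2, and 2 purine genes were lower on leaving out DMSO A or DMSO B. SAM2 and SAM1, a near-identical pair that makes the methyl donor, changed by −1.18 and −0.96, and MET6, methionine synthase, by −0.86. GCV1 and GCV2, of glycine breakdown, changed by −1.16 and −1.12. Of 39 tested genes of amino acid synthesis under Gcn4 11 were lower and 0 higher (median −0.05). With the block the numbers were 17 and 4, and 7 were lower on leaving out 3IAA A and 6 for each of 3IAA B, DMSO A and DMSO C.

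Related strains allowed a test of what differed. In the Med7N strain, SHY1436, the degron sat on the N-terminal part (pSH1991, mini degron-med7DC) beside an untagged C-terminal part (pSH1986, med7DN). In the Med7 strain, SHY1060, the whole protein was tagged in the chromosome (MED7-3xV5 IAA7::KanMX) with RPB3-3xFlag::NATMX. Each had 3 libraries with 3IAA and 3 with DMSO of its own, in the same background. The median gene changed by −0.81 in Med7N and −0.16 in Med7, against −0.50 in Med7C. Relative to the median gene, 19.1% of genes were higher and 20.7% lower in Med7N, and 1.44% and 5.76% in Med7.

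The change in Med7C differed from that in Med7N for 262 of 4420 genes (5.93%), of which 66 had the higher relative change in Med7C (1.49%) and 196 the lower (4.43%). The number was 497 with the letters as a block, although the letters did not pair the Med7N libraries, and 169 without 3IAA A of Med7C. The signal minimum applied to the mean over the 12 libraries of both strains, so a gene could be tested that was under it in 1 strain. Of the 196 genes, 139 were called lower in Med7C, and in Med7N 85 were called higher and 49 lower. Over all genes tested 15% were lower in Med7C, and 19.1% were higher and 20.7% lower in Med7N. The 196 were picked from the same libraries for a lower change in Med7C, which favours such calls, so these counts are descriptions only. The difference from Med7 was called for 19 of 4454 genes (0.427%), 5 higher (0.112%) and 14 lower (0.314%) in Med7C. That number was 9 without 3IAA A or DMSO A of Med7C, 11 without its 3IAA C, and 44 without DMSO A of Med7. Across genes tested in both strains, relative changes in Med7C had r = 0.715 with those in Med7N and r = 0.717 with those in Med7. The counts of called differences therefore do not rank the strains by likeness to Med7C.

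Genes of oxidative defence stood among the differences in both tests. The list of these genes was drawn up after the values were seen. Of 33 tested in Med7C 16 were lower and 1, the activator gene YAP1, was higher. With the block 20 were lower and 3 higher, and 2 were higher on leaving out 3IAA A, 3IAA B or DMSO C. In Med7N 16 of 32 were higher and 5 lower, and in Med7 7 of 28 and 1. The difference was called for 21 of 32 genes against Med7N and 7 of 31 against Med7, each lower in Med7C. SRX1, among the latter, was under the signal minimum in Med7. Over all genes tested the difference was called lower for 4.43% against Med7N and 0.314% against Med7, and 19.1% were higher in Med7N. Drawing up the list with these values seen favours such calls, so its counts are descriptions only.

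GPX2, a peroxidase, was among those called against both strains. In Med7C it had 125.5, 123 and 119 in 3IAA and 264, 236 and 262 in DMSO, and in Med7 35.2, 40.9 and 48.8 in 3IAA and 17.5, 18.6 and 15.7 in DMSO. It was lower with 3IAA in Med7C and higher in Med7, without overlap in either. The relative log2 changes were −0.53 ± 0.07 in Med7C and 1.39 ± 0.15 in Med7, a difference of −1.90 ± 0.17 (limma, adjusted p = 5.76e-05). In Med7N, also a split strain, the relative change of GPX2 was 0.34 and was called higher. CIN5, a stress transcription factor, had 133, 115 and 119 in 3IAA and 158, 179.8 and 156 in DMSO in Med7C. In Med7 it had 29.1, 30.1 and 27.6 in 3IAA and 10.9, 13.1 and 9.67 in DMSO. The relative change of CIN5 was 0.09 in Med7C, not called, and 1.48 in Med7, a difference of −1.37 ± 0.12.

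GRE2, a reductase, had 92.4, 79.6 and 77.5 in 3IAA and 306, 251 and 316 in DMSO in Med7C and 227.5, 209 and 217 in 3IAA and 422, 431 and 411 in DMSO in Med7N. In both strains every 3IAA library lay under every DMSO library on the deposited scale, on which the median gene fell too. The relative changes were −1.28 ± 0.10 and −0.14 ± 0.05, the latter not called. Their difference was −1.14 ± 0.11 (limma, adjusted p = 4.18e-05). TRX2, a thioredoxin, had 45.9, 47.1 and 45.1 in 3IAA and 93.6, 65.4 and 79.5 in DMSO in Med7C and 134, 111 and 80 in 3IAA and 106, 91.8 and 97.9 in DMSO in Med7N, where the groups overlapped. Its difference was −1.17 ± 0.19, and that of SRX1, which repairs peroxiredoxins, was −1.25 ± 0.23. Neither was called in Med7C on the relative scale, with TRX2 at −0.25 and SRX1 at 0.06. In Med7N their relative changes were 0.92 and 1.30, both called higher.

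Deposited DMSO levels differed between the strains. The basis of the scaling is not given, and a difference in scaling between strains was not tested. Over all 4526 genes the DMSO level in Med7C was higher than in Med7 by a median log2 of 0.79, and 39.9% were more than 2-fold higher. Over the 33 oxidative defence genes the median was 1.5, and 69.7% were more than 2-fold higher. Against Med7N the medians were 0.26 and −0.01. The part of these levels in the differences was not tested.

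**Figure D5:**
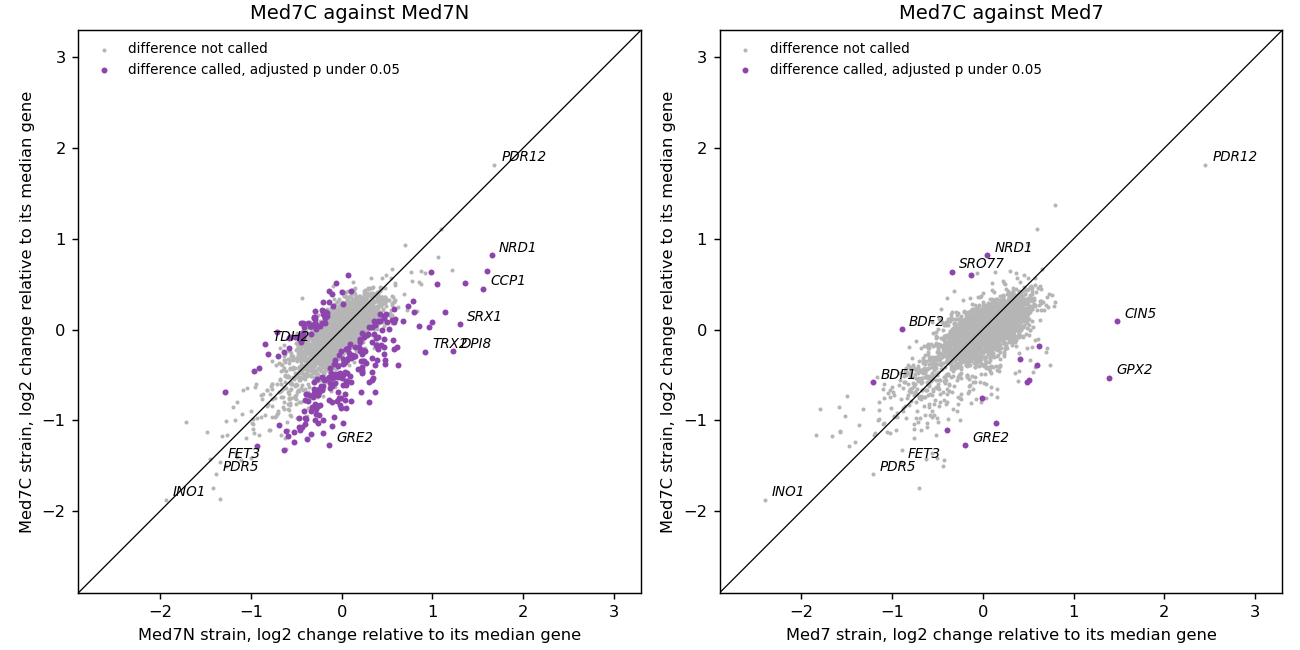
The panels set the relative log2 change in Med7C against that in Med7N and in Med7, each point being a gene tested in both, with genes whose change differed by test in purple and a line of equal change. Oxidative defence genes such as GPX2 and GRE2 lie on the side lower in Med7C.

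Other genes differed in the opposite sense. TRP1, on a plasmid in both split strains, had a difference from Med7N of 1.42 ± 0.15. Its signal in Med7N was 5.59, 4.35 and 4.66 in 3IAA and 13.6, 10.4 and 13.2 in DMSO, far under that in Med7C. HMS1 differed by 0.78 ± 0.09. Both TRP1 and HMS1 were under the signal minimum in Med7N and were tested only through Med7C. TDH2, a glycolysis gene with near copies, differed by 0.68 ± 0.10. Against Med7, the bromodomain genes BDF2 and BDF1 differed by 0.92 ± 0.10 and 0.65 ± 0.11, with changes in Med7 of −0.89 and −1.21. NRD1 changed by 0.82 ± 0.06 in Med7C and 1.65 ± 0.05 in Med7N, and differed from Med7N by −0.84 ± 0.08 and from Med7 by 0.79 ± 0.13. For INO1, PDR5, FET3 and PDR12 no difference from Med7N was called, and the estimates were 0.06 ± 0.51, −0.21 ± 0.14, −0.12 ± 0.22 and 0.13 ± 0.29.

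Across the 21 other degron strains, each set against its own median gene, some of these genes kept 1 direction. PDR12 was above the median gene in all 21 (from 0.88 to 3.68), and 18 of these values exceeded that of Med7C. ATO2 was above it in all 21 too, though it reached the signal minimum in only 5. PTR2 was above the median gene in 20 of the 21, ICS2 in 17 and HXT1 in 16. INO1, PDR5, FET3, FTR1 and ARN2 were below it in all 21. TMA10, which reached the signal minimum in only 9 of the 21, was below it in 11, and the lowest other value, −1.34 in Med7N, was above the −1.88 of Med7C. GPH1 ranged from −1.62 in Med14C to 1.31 in Med12, below the median gene in 10 of 21, and reached the signal minimum in 14. These values are descriptions with no test.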

How the data were processed

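The authors deposited 1 table per library with a signal value per gene, given to 2 decimals. Its scaling is not given in the sources used here. The submitters' processing notes name Bowtie2 and HTSeq without versions, and the builds sacCer3 and ASM294v2. Values of 162 libraries were read, and 15 files of counts were not used. Changes were tested with limma 3.58.1 in R 4.3.3 on log2(signal + 1), which understates changes of low genes, for genes averaging 10 or more, with Benjamini-Hochberg adjustment over all genes tested. The fit was made on the deposited scale and with each library centred on its median gene. Differences between strains were tested as interactions over 12 libraries with separate controls. Whole reads were recovered by dividing signal by its step. All values lay on the step within 0.005 in the 18 libraries compared, but for Med7C 40.5% to 94.8% would by chance, so its recovered depth of 13678595 to 19654818 reads is uncertain. edgeR 4.0.16 on these reads called 399 genes higher and 697 lower on the relative scale. Libraries of the same letter deviated together in Med7C (r of 0.365 to 0.630), and other letters did not (−0.563 to 0.028), so the letters pair them. Tested on simulated data for this comparison, with 4532 genes, the fit called 97%, 100% and 100% of genes changed by 0.5, 1 and 2 on the log2 scale, and 0.254% of unchanged genes. The simulated counts had a common spread for all genes, taken from the recovered reads, and no effect of the letter. The real libraries differ in both respects, so these shares do not give the power of the real test.

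Named genes were MED7 and Mediator genes, those higher on the deposited scale, the 15 largest rises and falls without overlap on the relative scale, up to 4 called members of each list, and the 6 largest differences between strains in each direction. Members and lists were chosen with earlier results of these data known, and the oxidative defence list and the printed windows after the values were seen.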

Additional observations from a re-analysis of the deposited data

Results flagged for a closer look

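The changes below were picked out because the test of the difference between strains called them on the relative log2 scale. Groups of 3 libraries allow no test for a library that stands apart. Against Med7N, the change in Med7C was higher for TRP1 by 1.41, HMS1 by 0.777, TDH2 by 0.684, HEM25 by 0.681, SEN2 by 0.665 and FMP48 by 0.603. It was lower for DPI8 (−1.47), SRX1 (−1.25), TRX2 (−1.16), GRE2 (−1.14), CCP1 (−1.11) and YML131W (−1.09). TRP1, HMS1 and SEN2 were under the signal minimum in Med7N and were tested only through their level in Med7C.

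Against Med7, the change in Med7C was higher for SRO77 by 1.0, BDF2 by 0.916, NRD1 by 0.789, MED7 by 0.753 and BDF1 by 0.646. It was lower for SRX1 (−1.91), GPX2 (−1.9), YCR102C (−1.39), CIN5 (−1.37), FMP48 (−1.16) and YLR108C (−1.15). SRX1, YCR102C and FMP48 were under the signal minimum in Med7, so their differences rest on low values there. MED7 is read from plasmids in Med7C and from the tagged chromosomal gene in Med7.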

How the results depend on the processing

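The fall of the median gene kept its direction under every alternative run, from −0.56 to −0.45. Genes higher on the deposited scale numbered 24 with no filter and 4 with a mean signal of at least 30, where 2790 were lower and fewer genes were tested. Genes higher relative to the median gene numbered 800 with no filter, 867 with the replicate block that pairs the letters, and 133 to 383 with a library left out. Genes that differed from Med7N numbered 497 with the replicate block and 169 to 316 with a library left out. Those that differed from Med7 numbered 33 with a pseudocount of 5, 16 with the block and 9 to 44 with a library left out. The letters did not pair the libraries of Med7N or Med7. Of the 135 named calls in Med7C, 134 held under TMM scaling and under edgeR, 135 with the block, and 107 to 126 with a library left out. No value changed sign among these. Causes of the shifts were not tested.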
